A study of Mus musculus with 8 samples.

Results

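The genes of the major histocompatibility complex (MHC) and of antigen processing were examined in total mammary cell preparations of parous and virgin mice. The members were all probe sets of the array whose every annotated symbol begins with H2-, together with the probe sets naming only 1 gene of a further short list, with B2m, Cd74, the immunoproteasome subunits, the peptide transporter and the MHC transactivators among them. The rule used names alone, and 71 of the 34760 probe sets met it, covering 58 gene symbols. Of these, 26 belonged to class I, 10 to class II, 10 to peptide supply and loading, 22 to the regulators and 1 (Ifi30) to class II processing, and 2 (the pseudogene H2-K2 and H2-Ke6) lay in the complex without belonging to a class. The classical class I genes H2-K1 and H2-D1 were represented by 2 probe sets that also name LOC547349, so both lay just outside the rule and are described beside it.

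RNA from 8 pools, each of the 4th mammary glands of 5 mice, was hybridised to 1 array per pool, giving 4 parous and 4 virgin arrays. Parous FVB/NHanHsd mice were put with males when 42 days old, and the sample labels allot 21 days to lactation and 28 days to involution, whereas the study's methods give a longer interval from weaning to cell harvest. The virgin (nulliparous) mice were of the same strain and age and were never mated. The lymph node was taken out of each gland, and the digested cells were cleared of adipocytes and red blood cells and partly of fibroblasts by attachment to plastic, with no step that removed leukocytes. The values therefore describe a mixture of cells of 5 animals, and the p-values measure the spread between 4 such pools per group.

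MHC class I molecules pair a heavy chain with beta-2-microglobulin and show peptides from inside the cell to CD8 T cells. The peptides are cut by the proteasome, carried into the endoplasmic reticulum by the Tap transporter, trimmed by Erap1 and loaded with the help of tapasin. Class II molecules are made mainly by B cells, dendritic cells and macrophages, and by some epithelia under interferon-gamma. They travel with the invariant chain Cd74, exchange its remnant for peptides of ingested proteins with the help of H2-DM, and are switched on by the transactivator Ciita, whereas Nlrc5 acts on class I genes.

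The genes of class II share a promoter module to which the Rfx complex and NF-Y bind, and class I promoters carry a related module. RefSeq promoter windows (GRCm38.p6, 250 bases before to 50 bases after a start) were found for 40 of the 58 member symbols. The 6 stretches of 150 bases ahead of the start shown here were chosen to set class II genes whose values moved together across the arrays, including the gene with the opposite difference between groups (H2-Eb2), beside 2 class I genes with a narrow spread. Capitals mark GATTGG (the core of the Y box, read as CCAATC on the opposite strand), TAGCAAC (a core of the X box) and GAAANNGAA (a short form of the interferon response motif). The sequences are those of the C57BL/6J reference, whereas FVB mice carry another haplotype of the complex, and no sequence of these mice was examined. The class II windows were as follows.
H2-Aa, chr17:34287824-34287973, minus strand: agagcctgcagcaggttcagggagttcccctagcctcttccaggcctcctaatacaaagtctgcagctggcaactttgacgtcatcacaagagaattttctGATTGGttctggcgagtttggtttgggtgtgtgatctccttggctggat
H2-Ob, chr17:34238755-34238904, plus strand: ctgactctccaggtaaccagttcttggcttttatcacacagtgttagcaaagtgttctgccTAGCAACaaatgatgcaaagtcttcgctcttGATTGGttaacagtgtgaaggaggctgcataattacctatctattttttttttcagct
H2-Eb1, chr17:34305717-34305866, plus strand: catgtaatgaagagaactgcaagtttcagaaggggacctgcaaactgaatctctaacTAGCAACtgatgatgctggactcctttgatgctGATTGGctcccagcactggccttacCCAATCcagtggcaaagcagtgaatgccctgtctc
H2-Eb2, chr17:34325525-34325674, plus strand: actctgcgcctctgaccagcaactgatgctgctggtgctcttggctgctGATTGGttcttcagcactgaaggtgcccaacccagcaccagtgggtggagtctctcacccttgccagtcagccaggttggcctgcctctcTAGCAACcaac

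The class I windows were as follows.
B2m, chr2:122147537-122147686, plus strand: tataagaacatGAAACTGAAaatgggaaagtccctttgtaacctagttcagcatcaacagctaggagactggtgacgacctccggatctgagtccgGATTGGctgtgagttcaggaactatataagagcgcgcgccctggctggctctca
H2-Q4, chr17:35379467-35379616, plus strand: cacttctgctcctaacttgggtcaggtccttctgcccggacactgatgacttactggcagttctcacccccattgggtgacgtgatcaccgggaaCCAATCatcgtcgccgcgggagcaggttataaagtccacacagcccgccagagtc

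GATTGG was found on the strand of the gene in the windows of all 8 class II genes with a window (H2-Ab1, H2-Ea and Cd74, also among the 11 class II symbols, were without one) and of 2 of 21 class I genes, against 8.71% of all 32851 windows. On the opposite strand it was found for 14 of 21 class I genes and 1 of 8 class II genes, against 8.39% of all windows. TAGCAAC was found on either strand in 3 of 8 class II windows (H2-Ob, H2-Eb1 and H2-Eb2) and in 0 of 21 class I windows, against 3.66% of all windows. In H2-Ob and H2-Eb1 it began 89 and 93 bases before the start, ahead of the gene-strand GATTGG (58 and 60). In H2-Eb2 the exact match began 11 bases before the start, behind GATTGG (101). Ahead of that GATTGG the H2-Eb2 window reads cagcaac, which differs from TAGCAAC in 1 letter and was not counted by the exact search. The order of the 2 boxes in H2-Eb2 can therefore not be read from the exact matches. GAAANNGAA was found on either strand for 3 of 21 class I genes, B2m among them, for 2 of 8 supply and loading genes (Erap1 and Psme1) and for 0 of 8 class II genes, against 8.56% of all windows. The class II windows searched thus shared the gene-strand Y box core, and most class I windows held the same letters in the other orientation. Paralogous genes share sequence, so their windows are not independent, and a match is a match of letters only.

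The deposited values are log2 expression levels, so a difference of 1 is a factor of 2. The 8 arrays correlated with each other between 0.976 and 0.993 over all probe sets, and their number limits the precision. Epithelial markers were high on all arrays, with Krt8 between 13.04 and 13.37 and Epcam between 11.42 and 11.63. Leukocyte markers were well measured too, with Ptprc (CD45) between 8.91 and 10.35 and the T cell gene Cd3e between 9.37 and 11.25. The preparations labelled as total mammary epithelial cells thus held leukocyte RNA on each array. Parous 1 and virgin 3 stood highest of their groups in B cell markers. The mean of 7 B cell markers was 8.17, 6.68, 6.49 and 6.87 on parous arrays 1 to 4 and 7.34, 6.16, 8.87 and 6.22 on virgin arrays 1 to 4. Virgin 2 and virgin 4 stood highest in proliferation markers, whose mean was 8.57 and 9.07 there against 6.45 to 7.06 on the other arrays. In such bulk RNA, fewer cells of a type and less RNA per cell cannot be told apart.

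None of the 71 member probe sets passed the criteria of the study (adjusted p under 0.05, mean log2 value over 2, and levels that differ by more than 1.5-fold) in the limma comparison of parous with virgin arrays. Over the whole array 0.397% of the probe sets did. No member differed by more than 1.5-fold, since the log2 fold changes ran from -0.40 to 0.58. At an unadjusted p under 0.05 there were 9 members, or 12.7%, against 11.4% of all probe sets. Of these, 2 lay higher in parous arrays (Cd1d1 and H2-M9), where 5.26% of all probe sets did. The other 7 (Psmb8, Psmb9, Psme1, Psme2, Erap1, H2-Ab1 and Cd74) lay lower, where 6.14% of all probe sets did. The groups did not overlap for 4 of 71 members, or 5.63%, against 7.6% of all probe sets. The 19 Nlrc5 probe sets make up much of the 71, and among the 53 members with 1 probe set per symbol 9, or 17.0%, were at an unadjusted p under 0.05. The 95% interval of the fold change stayed within 1.5-fold in either direction for 56 of the 71 probe sets, and for only 3 of the 10 class II probe sets.

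**Figure D1:**
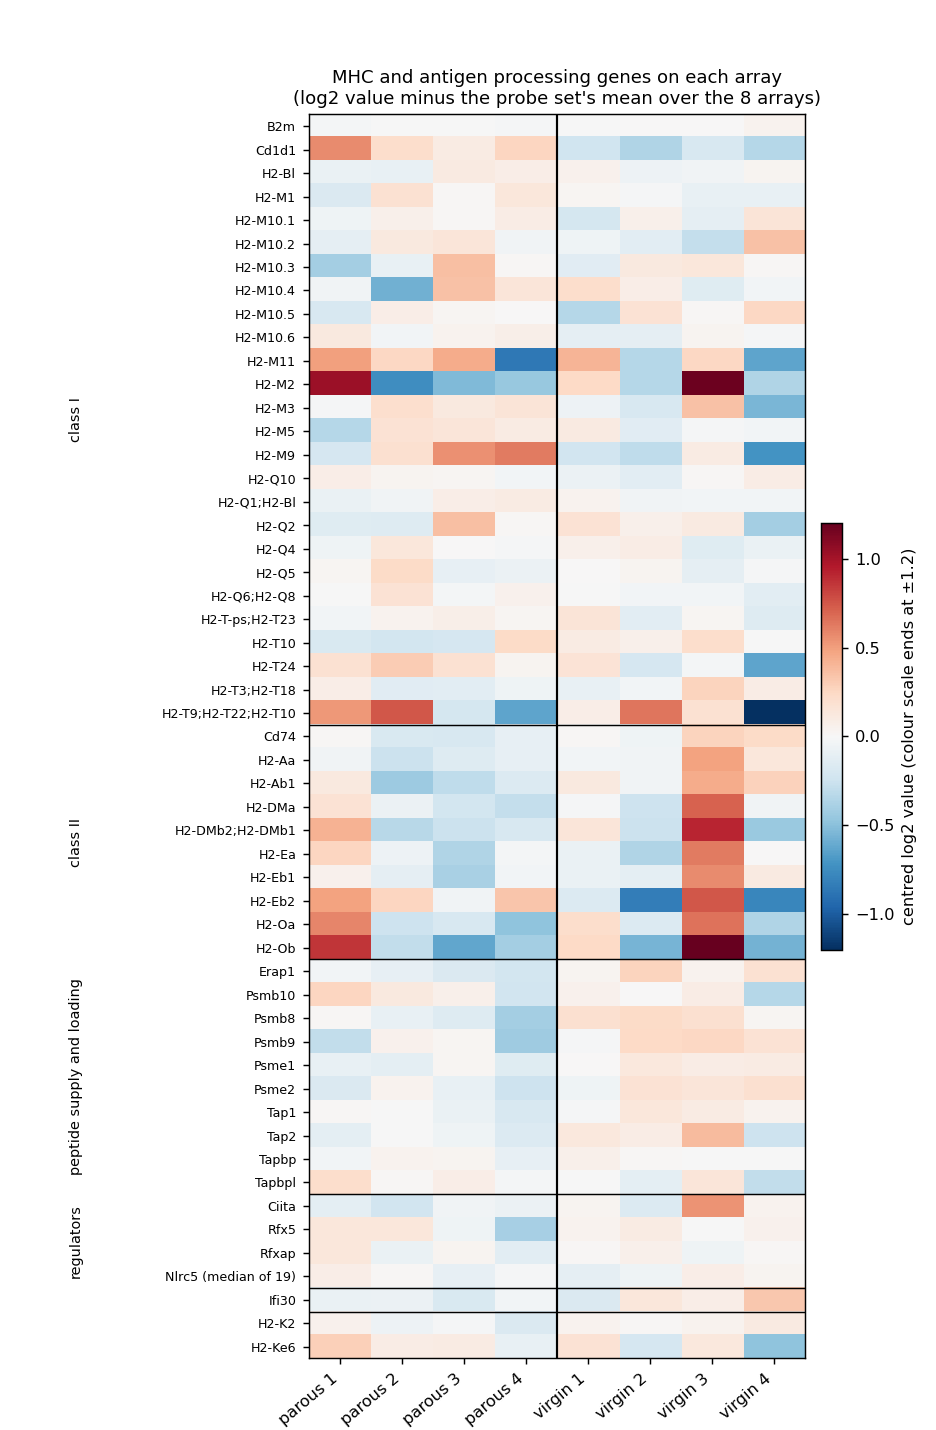
Heat map of the member probe sets on the 8 arrays, each value being the log2 level minus the mean of that probe set over the 8 arrays (red above, blue below the mean; the 19 Nlrc5 probe sets are shown as their median). The class II block is red on virgin 3 for all 10 probe sets, whereas most class I rows are pale across all arrays.

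The median difference of the class I genes between the groups was small, whereas single class I genes differed more. The median log2 fold change (parous minus virgin) of the 26 class I probe sets was 0.04, with 19 above 0 and 7 below, beside a median of 0.0016 over all probe sets. Their median centred value, which is the level on an array minus the mean over the 8 arrays, lay between -0.04 and 0.07 on the 8 arrays. Of the 26, 12 had a mean under the median of all probe set means (6.35). Among them were the 6 H2-M10 probe sets, which are known from vomeronasal neurons. The single log2 fold changes ran from -0.35 (H2-M2, a dim probe set) to 0.58 (H2-M9), with Cd1d1 at 0.57. The limma interval of the fold change stayed within 1.5-fold in either direction for 19 of the 26. The small median therefore does not bound the difference of each class I gene.

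B2m encodes the light chain that every class I molecule shares. Its log2 values were 12.71, 12.73, 12.72 and 12.71 on the parous arrays and 12.73, 12.74, 12.73 and 12.78 on the virgin arrays. It spanned 0.07 over the 8 arrays, and the groups only just failed to overlap. The difference was -0.03 ± 0.06 (SE, n = 4 and 4; 95% interval -0.16 to 0.11) with an adjusted p of 0.92. The exact permutation test gave p = 0.0286, the smallest that 4 arrays against 4 allow, for this small separation. The probe set naming H2-K1 first, just outside the rule, had means of 11.81 ± 0.02 (SD) in parous and 11.90 ± 0.06 in virgin arrays. Each parous array lay below each virgin array there (log2 fold change -0.10, exact permutation test, p = 0.0286). The one naming H2-D1 first had 12.22 ± 0.01 and 12.25 ± 0.02, and its groups overlapped. The limma adjusted p values were 0.64 for H2-K1 and 0.92 for H2-D1. Both genes encode classical class I heavy chains, and both probe sets stayed within 0.20 log2 units over all arrays.

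Cd1d1 had the smallest p of the members. It encodes the lipid-presenting class I-like molecule seen by natural killer T cells. Its log2 values were 8.30, 7.95, 7.84 and 7.99 on the parous arrays and 7.50, 7.37, 7.54 and 7.40 on the virgin arrays. All 4 parous arrays thus lay above all 4 virgin arrays, and it was the only member set apart in that direction. The log2 fold change was 0.57 ± 0.11 (SE, n = 4 and 4; 95% interval 0.32 to 0.81), or 1.48-fold, with a limma adjusted p of 0.091 and an exact permutation p of 0.0286. Over the 16 alternative settings the log2 fold change stayed between 0.47 and 0.63 and the adjusted p between 0.046 and 0.39. The lowest of these came from testing only the brighter probe sets, and the fold change there was still under 1.5. The related gene Cd1d2 had a log2 fold change of -0.02 ± 0.15, but its signal was weak, with a mean of 5.53 that lay under the median of all probe sets.

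H2-M9, a non-classical class I gene, had the largest difference of the members. Its log2 values were 10.37, 10.76, 11.12 and 11.19 on the parous arrays and 10.34, 10.26, 10.67 and 9.85 on the virgin arrays. The groups overlapped, with parous 1 inside the range of the virgin arrays. The log2 fold change was 0.58 ± 0.22 with an adjusted p of 0.37. The next smallest p values among the non-classical genes were those of H2-T24 (0.35 ± 0.16, adjusted p = 0.46) and H2-T10 (-0.19 ± 0.11, adjusted p = 0.60), followed by H2-M10.6 (0.10 ± 0.07, adjusted p = 0.67). The formyl peptide presenter H2-M3 had 0.22 ± 0.17, and H2-M11 had 0.17 ± 0.34. Virgin 4 was the lowest array for H2-T24 (6.72) and H2-M3 (7.64), and parous 4 for H2-M11 (6.50). The 6 H2-Q probe sets stayed between 0.03 and 0.10, with H2-Q4 at 0.03 ± 0.08, H2-Q5 at 0.04 ± 0.09 and H2-Q2 at 0.03 ± 0.16. Several H2-Q, H2-T and H2-M genes are near copies of each other, and the array cannot assign shared probe signal to 1 copy.

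**Figure D2:**
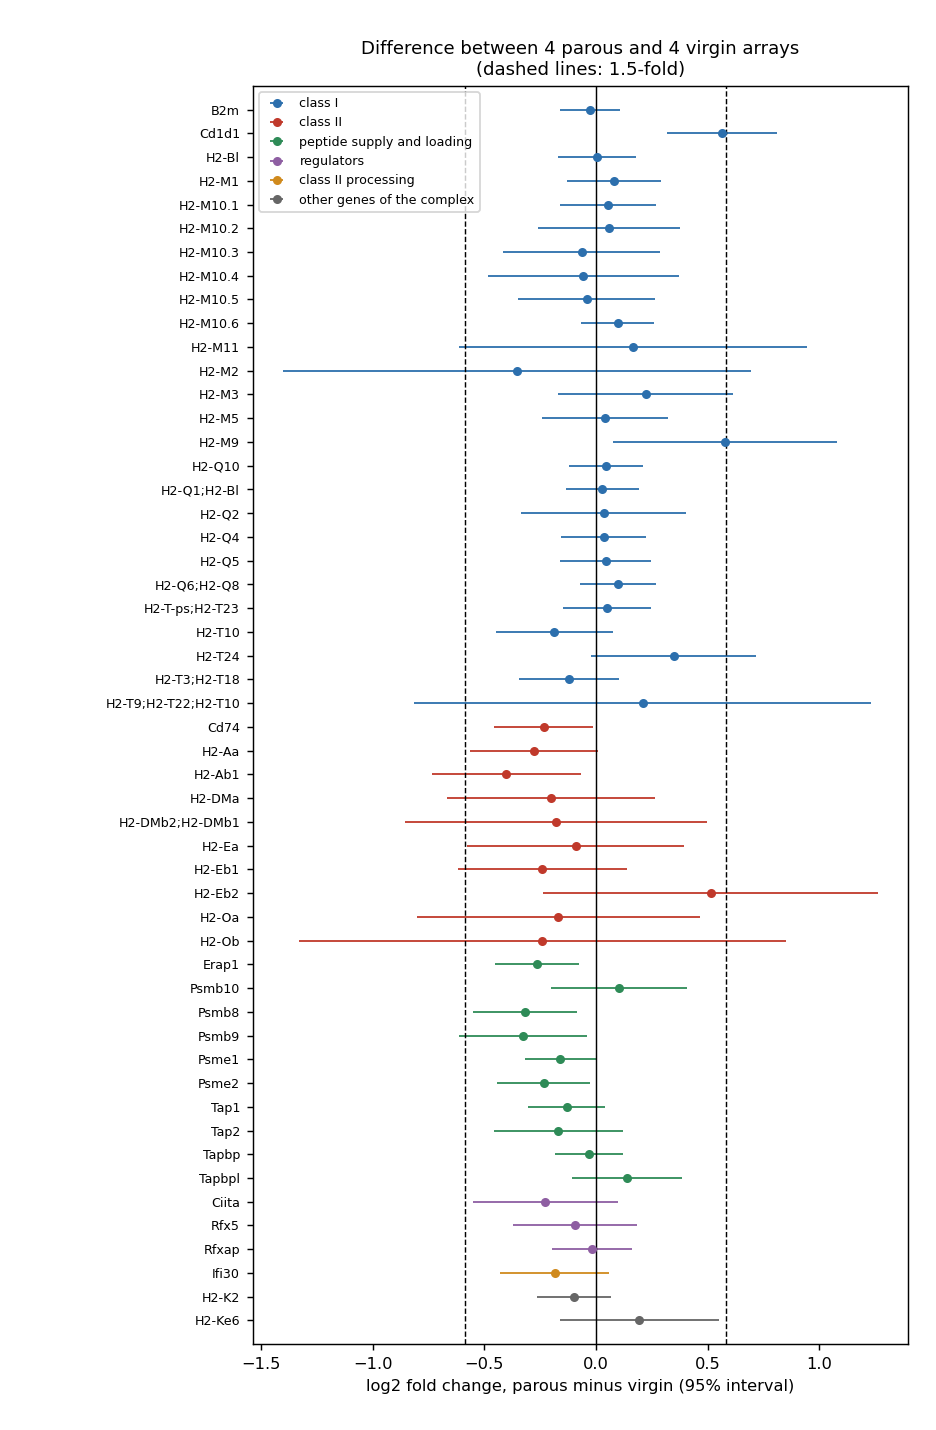
Log2 fold change (parous minus virgin) of each member probe set except the 19 of Nlrc5, with its 95% interval from limma, coloured by role; dashed lines mark 1.5-fold. All points lie between the dashed lines, the class II intervals are among the widest, and Cd1d1 and H2-M9 lie farthest to the right.

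The class II genes varied widely between the pools of each group. Of the 10 class II probe sets, 9 had a log2 fold change below 0, with a median of -0.22. At an unadjusted p under 0.05 there were 2, both lower in parous arrays, where 6.14% of all probe sets were, and none at an adjusted one. All 10 were highest on virgin 3 among the 8 arrays, and all 10 were highest on parous 1 among the parous arrays. The median centred class II value was 0.22, -0.21, -0.24 and -0.13 on parous arrays 1 to 4 and 0.00, -0.21, 0.64 and -0.02 on virgin arrays 1 to 4. Without virgin 3 the median log2 fold change was 0.01, with 4 of 10 below 0. Without parous 1 and virgin 3, a choice made after their B cell marker values had been seen, it was -0.15, with 9 of 10 below 0. The direction of the class II median thus rested on virgin 3 when that array alone was left out.

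Among the classical class II chains, H2-Ab1 (the beta chain of I-A) had the lowest log2 fold change. Its log2 values were 10.50, 9.95, 10.08 and 10.22 on the parous arrays and 10.51, 10.35, 10.84 and 10.66 on the virgin arrays. The 3 parous arrays other than parous 1 lay below all virgin arrays. The log2 fold change was -0.40 ± 0.15 (SE; 95% interval -0.73 to -0.07) with an adjusted p of 0.35, and it stayed between -0.51 and -0.32 over the alternatives. Its partner H2-Aa (the alpha chain) had 10.84, 10.61, 10.72 and 10.78 in parous and 10.85, 10.83, 11.36 and 11.01 in virgin arrays. That amounted to -0.28 ± 0.13 with an adjusted p of 0.45 (-0.16 without virgin 3), and the groups overlapped at parous 1 alone. Cd74 (invariant chain) had 12.11, 11.92, 11.91 and 12.00 in parous and 12.12, 12.05, 12.37 and 12.33 in virgin arrays. Its log2 fold change was -0.23 ± 0.10 with an adjusted p of 0.41, again with only parous 1 inside the virgin range.

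Of the I-E chains, H2-Eb1, the beta chain, had 7.83, 7.67, 7.40 and 7.75 in parous and 7.70, 7.66, 8.35 and 7.89 in virgin arrays, a log2 fold change of -0.24 ± 0.17 (adjusted p = 0.65) that was -0.09 without virgin 3. H2-Ea, the alpha chain, which mice of the FVB haplotype do not make as a protein, ranged from 8.08 to 8.70 in parous and from 8.08 to 9.06 in virgin arrays, with -0.09 ± 0.21. H2-Eb2, a paralog of the beta chain, was the 1 class II gene on the other side of 0. Its values were 6.95, 6.72, 6.42 and 6.80 in parous and 6.30, 5.64, 7.21 and 5.68 in virgin arrays. Virgin 2 and virgin 4 were the lowest arrays, virgin 3 was the highest, and the log2 fold change was 0.51 ± 0.33 (adjusted p = 0.62). Leaving out virgin 2 and virgin 4 brought it to -0.04, and leaving out virgin 3 to 0.85.

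Of the genes that edit class II peptide loading, H2-Ob had the widest spread of all class II probe sets. H2-Ob, a subunit of the H2-O inhibitor of H2-DM that is known from B cells, had 7.57, 6.42, 6.09 and 6.31 in parous and 6.95, 6.16, 8.09 and 6.15 in virgin arrays. It spanned 1.99 log2 units over the 8 arrays, with virgin 3 and parous 1 highest and virgin 1 next, and its log2 fold change of -0.24 ± 0.48 (adjusted p = 0.91) was small beside that. Its partner H2-Oa ranged from 6.48 to 7.55 in parous and from 6.60 to 7.62 in virgin arrays, with -0.17 ± 0.28 (adjusted p = 0.89). The catalyst H2-DM followed the same arrays. H2-DMa ranged from 8.95 to 9.40 in parous and from 8.98 to 9.94 in virgin arrays (-0.20 ± 0.20, adjusted p = 0.78), and the probe set shared by H2-DMb2 and H2-DMb1 from 7.59 to 8.34 and from 7.48 to 8.83 (-0.18 ± 0.30, adjusted p = 0.89). The 95% interval of H2-Ob, from -1.33 to 0.85, held differences of more than 1.5-fold in either direction, and those of H2-Oa, H2-DMa and H2-DMb held such differences toward lower values in parous arrays.

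**Figure D3:**
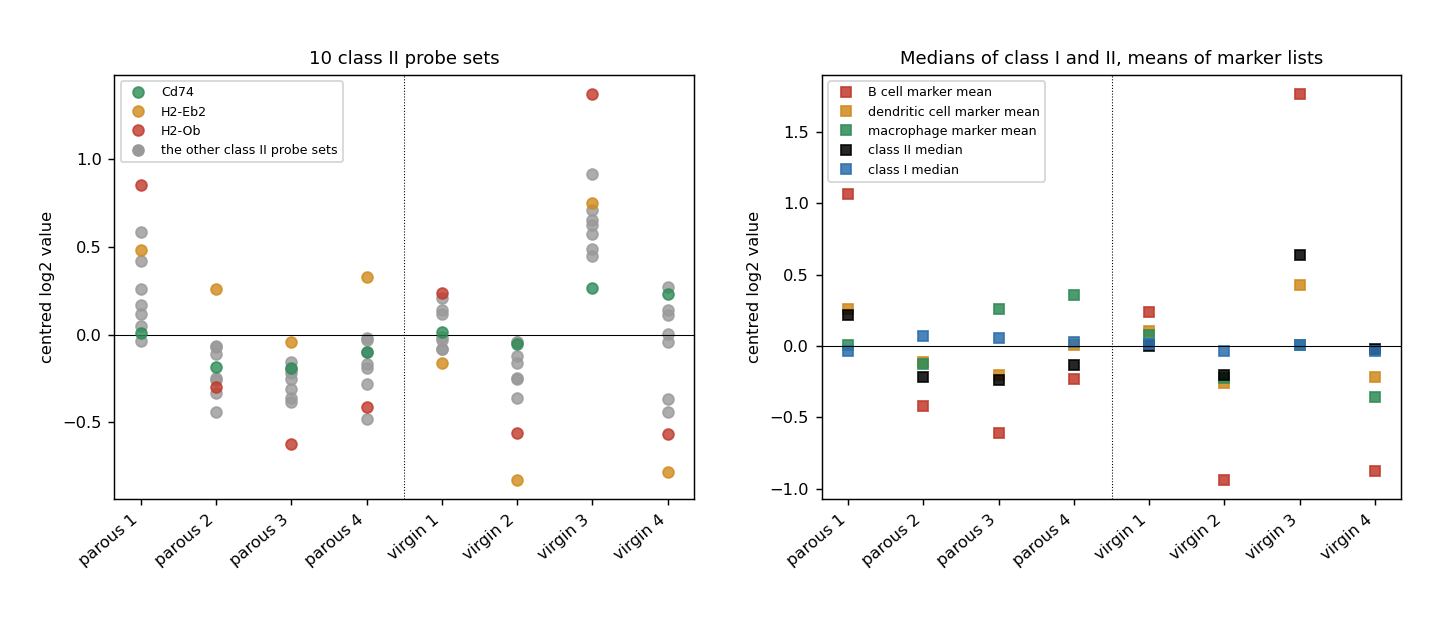
Left, centred log2 values of the 10 class II probe sets on each array; right, the per-array medians of class I and class II beside the means of the B cell, dendritic cell and macrophage marker lists, centred in the same way. Virgin 3 and parous 1 are highest of their groups for the class II median (0.64 and 0.22) and for the B cell mean (1.76 and 1.07), while the class I median stays between -0.04 and 0.07.

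The marker list of B cells, which carry class II molecules, was highest on the same arrays of each group as the class II genes. So were the T and NK cell list, with centred means of 0.78 on parous 1 and 0.85 on virgin 3, and the leukocyte list (0.65 and 0.83). The centred mean of the B cell list was 1.07, -0.42, -0.61 and -0.23 on the parous arrays and 0.24, -0.94, 1.76 and -0.88 on the virgin arrays. The B cell antigen Ms4a1 (CD20) reached 8.39 on parous 1 and 8.93 on virgin 3, with 5.10 and 5.32 as the lowest values of their groups. None of the 7 measured B cell markers passed the criteria, and the list mean ranged from 6.49 to 8.17 in parous and from 6.16 to 8.87 in virgin arrays. The dendritic cell list had centred means of 0.43 on virgin 3 and 0.26 on parous 1, and 0 of its 8 genes passed. Much of this lay in Ccr7, which lymphocytes express too, since without it the means were 0.29 on virgin 3, 0.06 on parous 1 and 0.04 on parous 4. Within the list, Itgax (CD11c) lay lower in parous arrays (-0.87 ± 0.18, adjusted p = 0.12) and Cd209a higher (0.86 ± 0.23, adjusted p = 0.21), both without overlap, and Itgax was highest on virgin 4 and virgin 2. The macrophage list did not follow the same arrays, since it was highest on parous 4 (0.36) and parous 3 (0.26). All 10 macrophage markers had a log2 fold change above 0, with a median of 0.22 and none past the criteria. Of the 6 plasma cell markers, 4 lay higher in parous arrays without overlap. Over all probe sets 7.6% were without overlap in either direction. Jchain (2.36 ± 0.30, adjusted p = 0.017) and Tnfrsf17 (1.24 ± 0.18, adjusted p = 0.031) were higher in parous arrays. Sdc1 (-0.24 ± 0.10, adjusted p = 0.41) and Prdm1 (-0.09 ± 0.10, adjusted p = 0.81) of the same list lay below 0. The part of these cells in the class II values was not tested.

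Of the genes that supply and load class I peptides, 8 of 10 had a log2 fold change below 0, with a median of -0.16. At an unadjusted p under 0.05 there were 5, all of them lower in parous arrays, where 6.14% of all probe sets were, and none passed after adjustment. The 5 became 2 when parous 1, parous 4, virgin 2 or virgin 3 was left out, or virgin 2 and virgin 4 together. Psmb8, a catalytic subunit of the immunoproteasome, had 9.33, 9.23, 9.16 and 8.92 in parous and 9.51, 9.55, 9.51 and 9.34 in virgin arrays. Each parous array lay below each virgin array, with parous 1 and virgin 4 close together. The log2 fold change was -0.32 ± 0.10 (SE; 95% interval -0.55 to -0.08), with an adjusted p of 0.29 and an exact permutation p of 0.0286. Psmb9, another catalytic subunit, had 8.32, 8.67, 8.64 and 8.20 in parous and 8.61, 8.86, 8.87 and 8.79 in virgin arrays. Its groups overlapped at virgin 1, with -0.33 ± 0.13 and an adjusted p of 0.37. Psmb10, the remaining catalytic subunit, lay on the other side of 0 with 0.10 ± 0.13 (adjusted p = 0.84). The subunits of the activator PA28, Psme1 and Psme2, had -0.16 ± 0.07 (adjusted p = 0.44) and -0.23 ± 0.09 (adjusted p = 0.38).

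The list named constitutive proteasome, which also holds genes not particular to that form of the proteasome, gave a similar picture. Only Psmb5 (-0.20 ± 0.10), Psmb6 (-0.23 ± 0.10) and Psmb7 (-0.12 ± 0.07) in it are subunits that the immunoproteasome replaces by its own. All 9 genes of that list had a log2 fold change below 0 (median -0.23), 4 of them at an unadjusted p under 0.05 (against 6.14% of all probe sets in that direction) and none past the criteria, with Psma7 (-0.36 ± 0.12) and Psma1 (-0.27 ± 0.10) at the smallest p values. Their mean was highest on virgin 4 (10.51) and virgin 2 (10.49), the arrays with the highest proliferation markers, and lay between 10.05 and 10.25 on the others. Each immunoproteasome subunit was set against the constitutive subunit it replaces, as a difference of log2 values within an array, a comparison chosen after the values had been seen. Psmb8 minus Psmb5 averaged -1.99 ± 0.17 (SD, n = 4) in parous and -1.87 ± 0.14 in virgin arrays. In exact 2-sided permutation tests over arrays, adjusted over the 3 pairs, this gave p = 0.47. Psmb9 minus Psmb6 averaged -1.85 ± 0.22 and -1.75 ± 0.16 (exact permutation test, adjusted p = 0.54), and Psmb10 minus Psmb7 -1.04 ± 0.17 and -1.27 ± 0.19 (exact permutation test, adjusted p = 0.47). The groups overlapped for all 3 pairs, and had only 1 pair been fully separated its adjusted p could not have been under 0.086. Markers of other kinds also differed between the groups. All 5 luminal epithelial markers had a log2 fold change below 0 (Krt19 -0.47 ± 0.08, adjusted p = 0.044; Krt8 -0.17 ± 0.07, no overlap), with list means of 12.21 to 12.34 in parous and 12.40 to 12.59 in virgin arrays. All 4 basal markers lay below 0 as well (Krt14 -0.75 ± 0.15, adjusted p = 0.11, no overlap), with list means of 10.44 to 10.67 and 10.71 to 11.47. All 5 proliferation markers were lower in parous arrays without overlap (median -1.29) and none passed the criteria. For all these markers, the share without overlap over all probe sets was 7.6% in either direction. The part of these markers in the proteasome, supply and loading values was not tested.

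**Figure D4:**
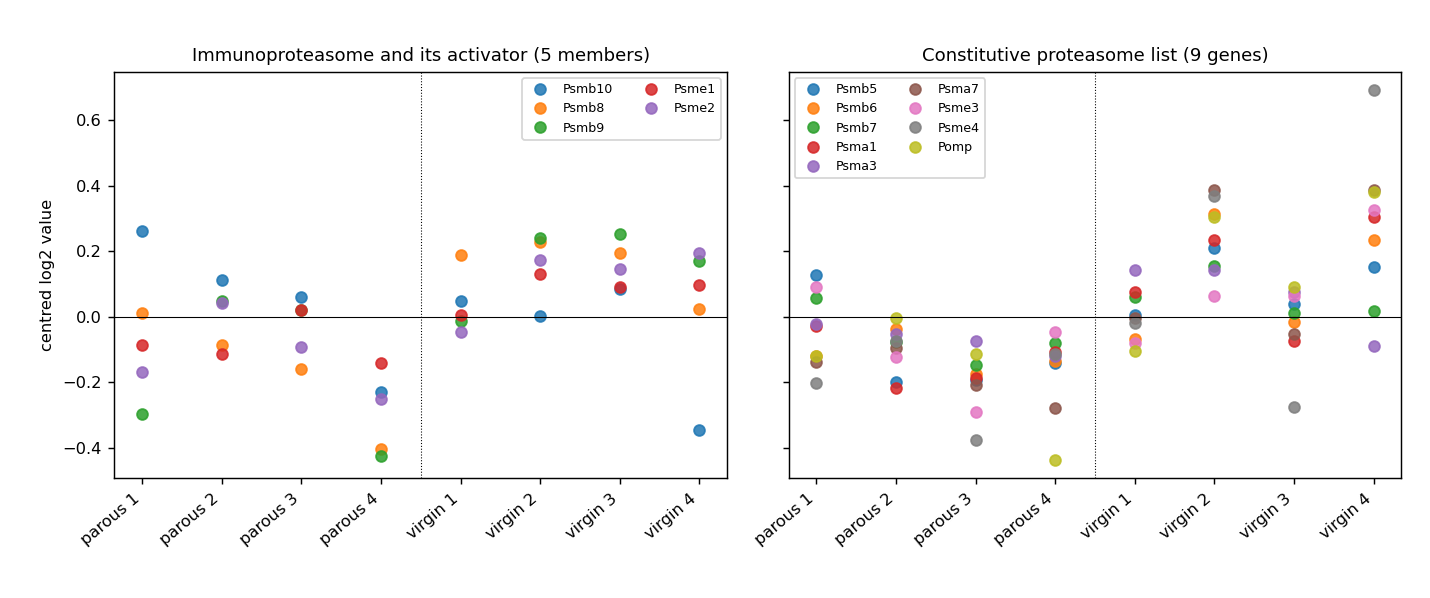
Centred log2 values of the 5 immunoproteasome and PA28 members (left) and of the 9 genes of the constitutive proteasome list (right) on each array. Most points of both panels lie below 0 on the parous arrays, Psmb10 is above 0 on parous 1 to 3, and the genes on the right are mostly highest on virgin 2 and virgin 4.

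Among the genes that load peptides, Erap1, the aminopeptidase that trims them in the endoplasmic reticulum, had the smallest p. Its log2 values were 8.83, 8.77, 8.69 and 8.65 in parous and 8.91, 9.14, 8.91 and 9.05 in virgin arrays. The groups did not overlap, and the log2 fold change was -0.26 ± 0.08 (95% interval -0.45 to -0.07) with an adjusted p of 0.28 and an exact permutation p of 0.0286. The transporter subunits Tap1 and Tap2 had -0.13 ± 0.08 (adjusted p = 0.58) and -0.17 ± 0.13 (adjusted p = 0.68), with Tap2 highest on virgin 3. Tapasin (Tapbp), which holds class I molecules at the transporter, spanned 0.16 over all arrays with -0.03 ± 0.07, and the tapasin-like gene Tapbpl had 0.14 ± 0.11. Ifi30, the lysosomal thiol reductase of class II processing, had 11.21, 11.22, 11.10 and 11.25 in parous and 11.12, 11.42, 11.37 and 11.61 in virgin arrays, a log2 fold change of -0.19 ± 0.11 (adjusted p = 0.57).

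**Figure D5:**
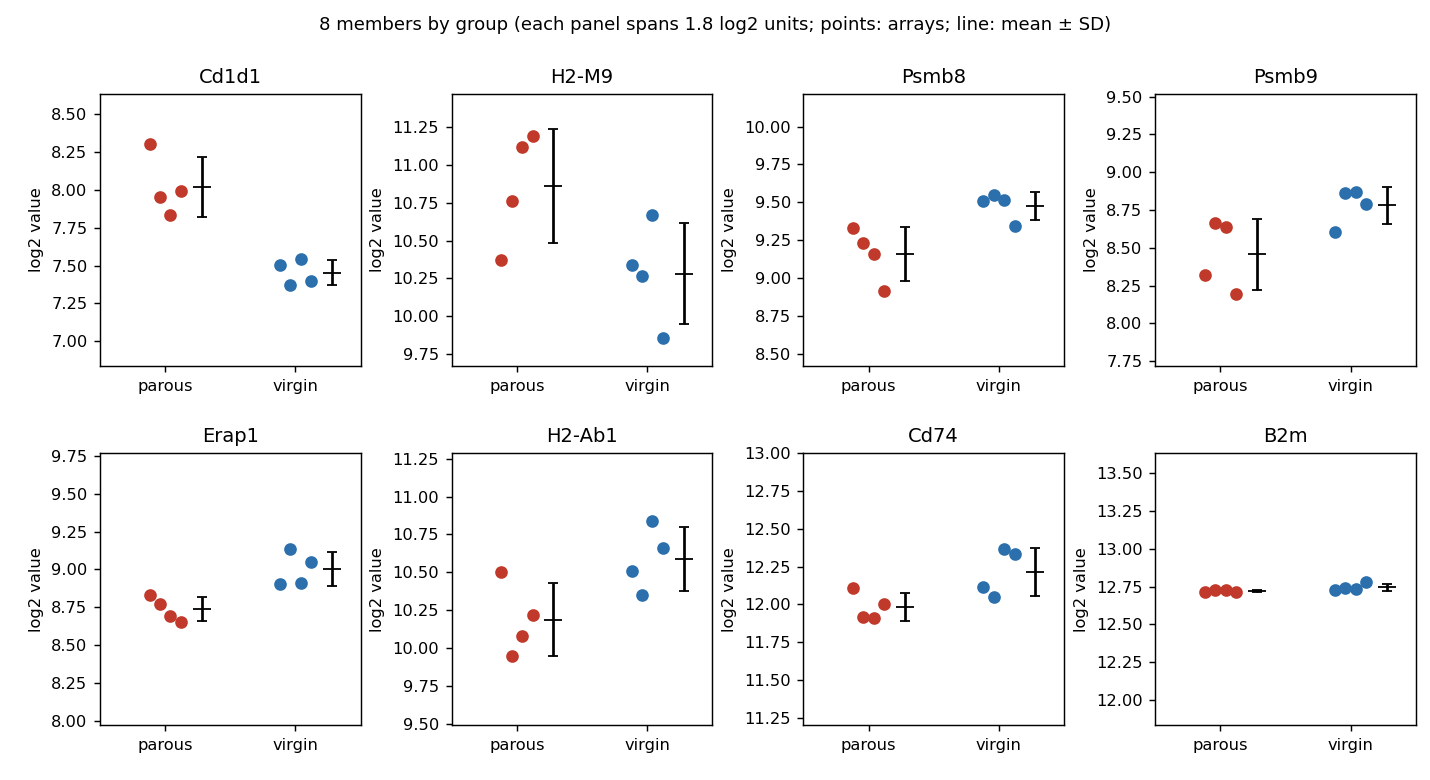
Log2 values of 8 members on the 4 parous and 4 virgin arrays, with the mean and SD of each group beside the points; every panel spans the same height of 1.8 log2 units. The groups are apart for Cd1d1, Psmb8 and Erap1, overlap for H2-M9, Psmb9, H2-Ab1 and Cd74, and nearly coincide for B2m.

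The regulators differed little between the groups. Ciita, the class II transactivator, had 5.76, 5.65, 5.84 and 5.81 in parous and 5.92, 5.72, 6.42 and 5.93 in virgin arrays. Virgin 3 was again the highest, and the log2 fold change was -0.23 ± 0.14 (adjusted p = 0.62), or -0.09 without virgin 3. The probe set of Ciita had a mean under the median of all probe sets, so its signal was weak. The 19 probe sets of Nlrc5 had log2 fold changes between -0.13 and 0.13, with a median of -0.0031, and 0 of them were at an unadjusted p under 0.05. Rfx5 and Rfxap, subunits of the complex that binds the X box, had -0.09 ± 0.12 and -0.02 ± 0.08. All 22 regulator probe sets had a 95% interval within 1.5-fold in either direction.

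Further genes of these pathways gave no call either, since none of the 57 measured of 60 listed genes passed the criteria. At an unadjusted p under 0.05, 9 of the 57 (15.8%, against 11.4% of all probe sets) were found, 2 higher and 7 lower in parous arrays. In the interferon-gamma and MHC transcription list, Ifng, the cytokine that induces both classes, had 0.71 ± 0.24 (adjusted p = 0.32) and its receptor chain Ifngr2 had -0.27 ± 0.09 (adjusted p = 0.32). The transcription factor Irf1, an interferon-gamma target, had 0.31 ± 0.15 (adjusted p = 0.49), and Rfxank, a partner of Rfx5, had 0.23 ± 0.10 (adjusted p = 0.45). The 10 class II proteases and trafficking genes had a median of 0.08, with 8 above 0, among them Ctsd (cathepsin D, 0.18 ± 0.09) and Cst3 (cystatin C, 0.16 ± 0.08). The other two were Sppl2a, which degrades the last fragment of Cd74, with -0.16 ± 0.07 (adjusted p = 0.40, no overlap), and Ctss (cathepsin S), which cuts Cd74, with -0.36 ± 0.17 (adjusted p = 0.46). Of the chaperones and trimming enzymes, the peptidase Thop1 had -0.42 ± 0.15 (adjusted p = 0.35), while calreticulin (Calr) had -0.02 ± 0.06. The class I-like gene Procr, the endothelial protein C receptor, had 0.58 ± 0.19 (adjusted p = 0.31). The 7 co-stimulation genes lay between -0.0049 and 0.38 with none at an unadjusted p under 0.05.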

How the data were processed

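Total RNA of 8 pools of 5 mice was amplified and hybridised to Affymetrix Mouse Gene 1.0 ST arrays, 4 parous and 4 virgin. The authors background-corrected, quantile-normalized and summarised the probe intensities by robust multi-array averaging (RMA) with the affy package (the methods give a Bioconductor release and no affy version), and the deposited values are log2 expression levels of 34760 probe sets. All columns of the table were mapped to samples through the labels (columns not mapped, 0). Gene names came from the platform annotation. RMA can compress the differences of dim probe sets, and 18 of the 71 members had a mean under the median of all probe sets.

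From these values limma 3.58.1 in R 4.3.3 (lmFit and eBayes, parous minus virgin, no covariate) was fitted over all probe sets with Benjamini-Hochberg adjustment over the whole table. The study's criteria were used for calls: adjusted p under 0.05, mean log2 value over 2, and levels that differ by more than 1.5-fold. Exact permutation tests were 2-sided over arrays, with 0.0286 as the smallest p that 4 against 4 allows. Intervals are 95% intervals of the limma fit. The code was tested on simulated data with known differences.

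The members, gene lists and tests were chosen with earlier results of these data known, so counts over members are descriptions. The text names every class II, supply, loading and regulator member, the brighter non-classical class I members with 1 symbol and the 5 with the smallest p, and from each other list up to 4 genes with the smallest p plus defining cell type markers. Names outside that rule include Calr, Cd1d2, Psmb5 and Psmb7, given for comparison, and H2-M2, H2-M5 and the probe set of H2-Q1 and H2-Bl, given as flagged results. A gene with several probe sets is given by the one with the highest mean, except among the members, where each probe set is kept. Promoter sequences are those of RefSeq (GRCm38.p6). The study describes independent experiments that each used mice of both groups, but the labels do not say that a replicate number marks an experiment. Deviations of same-numbered arrays from their group means correlated at 0.12, 0.18, -0.06 and 0.31, not all over 0.1, so the numbers were not taken as pairs and the block was kept as an alternative. The alternatives left out each array in turn or the arrays that stood apart, or changed the normalization, moderation, weights, filter, criteria or block.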

Additional observations from a re-analysis of the deposited data

Results flagged for a closer look

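In 6 of 142 groups of 4 arrays (71 probe sets in 2 groups), 1 array lay far from the others of its group by Dixon's test. Were the groups independent, chance alone would set about 1 in 20 apart, or 7.1 of 142. The groups share arrays and paralogous sequence, so this comparison cannot settle whether the 6 arose by chance. H2-M2 was high on parous 1 at 6.30, against 4.53 to 4.82 on the other parous arrays. Its virgin arrays were highest on virgin 3 (6.45), so this gene stood high on the same arrays as the class II genes and the B cell markers. H2-M5 was low on parous 1 at 5.17, against 5.60 to 5.68. The probe set shared by H2-Q1 and H2-Bl was high on virgin 1 at 7.06, against 6.98 to 6.99. H2-T10 was high on parous 4 at 10.16, against 9.71 to 9.75 on the other parous arrays. An Nlrc5 probe set (10574151) was high on parous 3 at 6.72, against 6.60 to 6.62, and another (10574153) on virgin 1 at 7.33, against 7.06 to 7.10.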

How the results depend on the processing

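No member passed the criteria in any of the 19 alternatives. In some of them this was fixed in advance, since no member differed by more than 1.5-fold and they left the fold changes unchanged. These were the replicate block, the other moderation, the filter on dim probe sets, the unadjusted p and the 2-fold criterion. At an unadjusted p under 0.05 the count of members, 9 with all arrays, ran from 4 to 12 when 1 array was left out (4 without virgin 4, 5 without parous 3 or without parous 4) and was 5 without virgin 2 and virgin 4. Without virgin 3 it was 6, with 4 higher and 2 lower in place of 2 higher and 7 lower. With the replicate block it was 8 (3 higher and 5 lower), the class II probe sets among them going from 2 to 1 as Cd74 went from an unadjusted limma p of 0.042 to 0.063, and no call past the criteria changed. Whether the numbers mark shared experiments is not given in the labels. The class I median log2 fold change, 0.04, became 0.0024 without virgin 2 and virgin 4 and ran from 0.03 to 0.07 with 1 array left out. The class II median, -0.22, ran from -0.31 to 0.01 with 1 array left out, the latter without virgin 3, and was -0.41 without virgin 2 and virgin 4. The supply and loading median stayed between -0.19 and -0.14. Of the 35 members followed singly, 21 kept their sign in all alternatives and 14 did not, in 22 of 558 values, none of which was past the criteria. For H2-Ob the log2 fold change ran from -0.92 to 0.18 and for H2-Eb2 from -0.04 to 0.85. The cause of these shifts was not tested. Signal near background limits the 18 dim probe sets, 12 of them class I, and with 4 arrays a group the class II intervals are too wide to bound a 1.5-fold difference for 7 of 10.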

Other observations

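Class II was also set against class I within each array. The class II median minus the class I median of centred values was 0.25, -0.29, -0.30 and -0.16 on parous arrays 1 to 4 and -0.02, -0.17, 0.63 and 0.01 on virgin arrays 1 to 4. Parous 1 and virgin 3 were thus the arrays with the highest class II values relative to class I in their groups, while 3 of the 4 parous arrays and 1 virgin array lay at -0.16 or lower.

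T and NK cell markers were also highest on parous 1 and virgin 3, with list means of 9.03 and 9.10 against 7.57 to 8.55 on the other arrays. The leukocyte list did the same, with 10.68 and 10.86 against 9.42 to 10.20. Ccr7, a homing receptor of mature dendritic cells and lymphocytes, reached 12.41 in parous and 12.12 in virgin arrays, with lowest values of 9.90 and 9.37. Of the NK genes, Ncr1 had a log2 fold change of 0.62 ± 0.16 (limma adjusted p = 0.20).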
